A study of Mus musculus with 8 samples.

Results

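The genes described here are 51 genes of the p53 response and of DNA damage repair, taken as a fixed list of symbols and measured in double-positive thymocytes, a stage of T-cell development at which CD4 and CD8 are both on the cell surface. Of the 51, 50 had a probe set with a single gene symbol among the 18193 genes of the array annotation, and 47 passed a filter on dim signals that left 9941 genes to test. Trp53, the gene of p53 itself, was not analysed here. RNA came from 4 mice labelled c-Myb deficient and 4 labelled c-Myb sufficient, all 4 to 5 weeks old, with 1 Mouse 430 2.0 array for each mouse. Every mouse lacked the T-cell receptor alpha gene (Tcra-/-) and carried Cd4-Cre, a recombinase driven by a Cd4 promoter that acts from about the double-positive stage. The cells were bound by anti-CD4 and pulled out magnetically, which also retains other cells with surface CD4.

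The titles and the genotype field set the groups. The source names run the other way, with Mybf/w, which by the usual notation keeps an intact Myb allele, for the arrays titled mutant, and Mybf/f, floxed on both alleles, for those titled control. Mean Myb signals were not lower on deficient arrays. Probe set 1421317_x_at averaged 11291 ± 543 on deficient and 9362 ± 1151 on sufficient arrays (SD, n = 4 each). Probe set 1422734_a_at averaged 5777 ± 428 on deficient and 4518 ± 460 on sufficient arrays. On both of these every deficient array was above every sufficient one. On 1450194_a_at the groups overlapped, at 7480 ± 323 on deficient and 7293 ± 846 on sufficient arrays. Whether the Myb probe sets lie in the deleted part is not given here, so the signals do not settle the conflict, and every direction below rests on the labels. The groups are named by their labels, and each difference is deficient minus sufficient. Array medians lay between 30.0 and 37.9 signal units. Of 10 double-positive markers, 9 could be tested and all 9 passed the dim filter. Of these 4 fell and 0 rose, and the sum of their signals was lower on deficient arrays (50859 to 56218) than on sufficient arrays (60271 to 64432). Xist, the RNA of the inactive X chromosome, was at 4129 to 5736 on the 4 deficient arrays and at 4358.5 in sufficient replicate 1, but at 23.4 to 36.7 in sufficient replicates 2, 3 and 4. The Y-linked gene Eif2s3y, on its brighter probe set, read 1.3 to 15.2 on deficient arrays and 2.1 in sufficient replicate 1. It read 1334.6, 1261.2 and 1217.2 in sufficient replicates 2, 3 and 4. Kdm5d, also Y-linked, showed the same split on its brightest probe set. By these transcripts the deficient mice and sufficient replicate 1 were female and the others male. Sex was thus largely confounded with group. The groups therefore also differed in their share of high-Xist mice. Sufficient replicate 1 is the 1 control mouse of the same Xist class as the deficient mice.

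The p53 protein is a transcription factor that is held low by the ubiquitin ligase Mdm2 and its relative Mdm4. DNA breaks activate the kinases Atm and Atr, which stabilise p53 and start cell cycle arrest, repair or death. Double-positive thymocytes cut their own DNA while they rearrange the T-cell receptor alpha locus, and they are known to die readily by a p53-dependent route after irradiation. The repair genes fall into pathways for double-strand breaks, for damaged bases and single-strand breaks, for mismatches and for bulky lesions.

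Most of the list did not differ between the groups beyond the test. Gadd45a, Trp53inp1 and Xpc fell and Sesn1 rose on deficient arrays, and the other 43 tested members were not called at an adjusted p of 0.05. These 4 of 47 members (8.5%) stand beside 9.98% called among all 9941 genes. Of the members 1 rose and 3 fell, against 5.89% called higher and 4.08% called lower among all genes. The groups of arrays did not overlap for 4 members, or 8.5%, against 17.0% of all genes tested. By role, 3 of the 17 tested p53 regulators and targets (17.6%) and 1 of the 30 damage sensing and repair genes (3.3%) were called, and this difference in share was not tested. The median log2 difference was -0.03 over the tested members and 0.02 over all genes. The 43 members that were not called ranged from -0.27 (Sesn2) to 0.44 (Apex1). For 36 of them the 95% interval of the difference lay within a 1.5-fold change in either direction. It reached beyond that size for Gadd45b, Sesn2, Zmat3, Pmaip1, Phlda3, Apex1 and Ogg1.

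**Figure D1:**
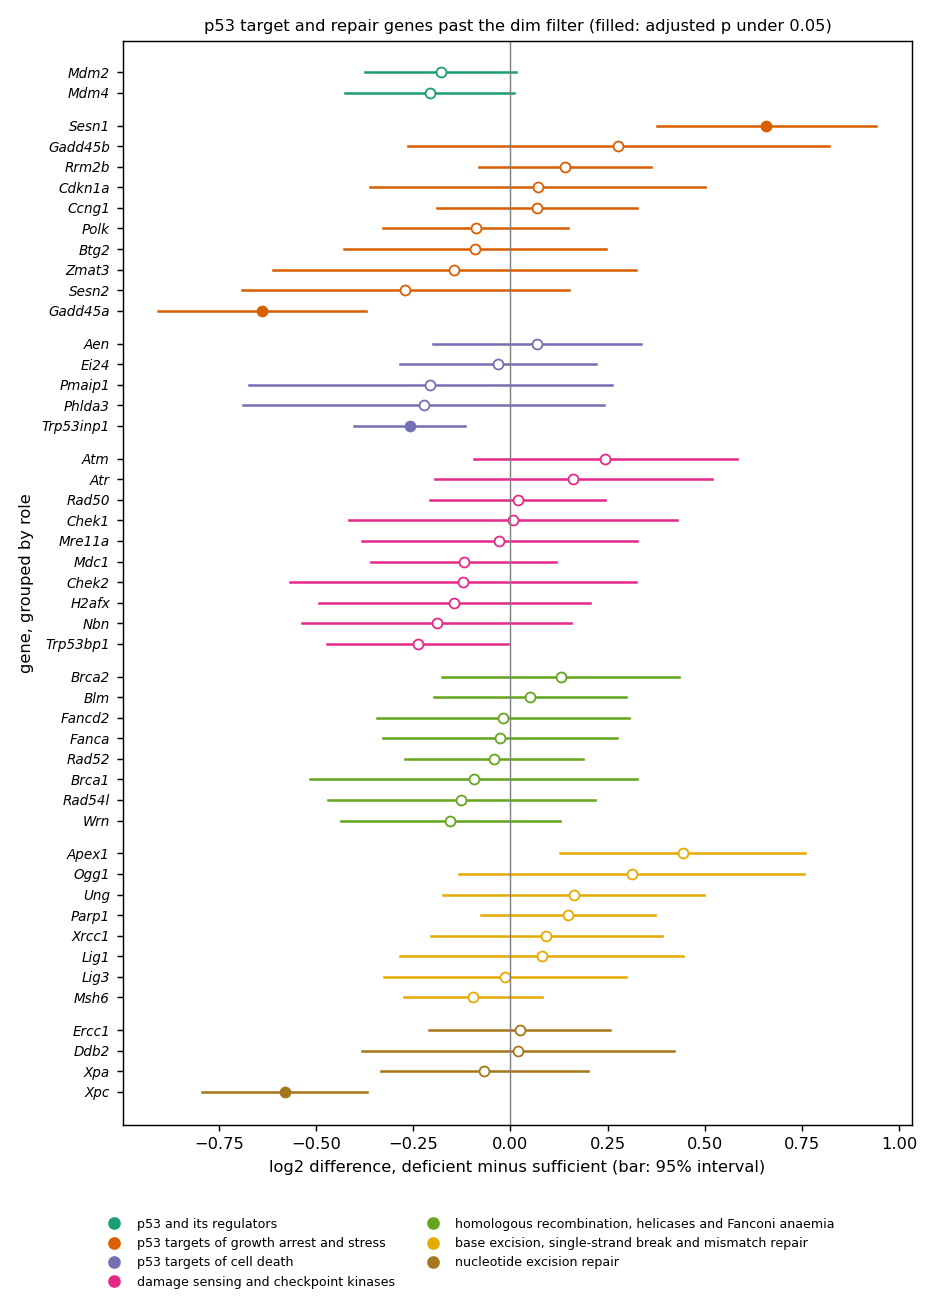
Log2 difference (deficient minus sufficient, x axis) of the 47 members past the dim filter (y axis, grouped and coloured by role), with 95% intervals from limma. Filled points mark the 4 members with an adjusted p under 0.05, of which Sesn1 lies at 0.66 and Trp53inp1, Xpc and Gadd45a lie between -0.26 and -0.64.

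Gadd45a encodes a small stress protein that binds PCNA and feeds into p38 and JNK signalling. It read 127.8, 142.0, 163.0 and 137.2 on deficient arrays, against 242.3, 254.5, 232.5 and 194.6 on sufficient arrays. Every deficient mouse was below every sufficient mouse. The gene was 1.56-fold lower on deficient arrays (log2 -0.64 ± 0.12, SE, adjusted p = 0.0082). It has a single probe set on the array, 1449519_at.

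Sesn1, a sestrin that restrains the growth kinase complex mTORC1 under stress, went the other way. It read 2426.5, 2483.2, 3103.7 and 2625.3 on deficient arrays, against 1773.9, 2057.8, 1595.7 and 1338.1 on sufficient arrays. The groups did not overlap, and deficient replicate 3 was the highest of all. The gene was 1.58-fold higher on deficient arrays (log2 0.66 ± 0.13, adjusted p = 0.00924). Its 3 other probe sets differed by 0.49, 0.50 and 0.57, each with all deficient arrays above all sufficient ones, and 2 of the 3 passed in a fit over 22599 probe sets. The related sestrin gene Sesn2 differed by -0.27 ± 0.19 (adjusted p = 0.431).

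Gadd45a and Sesn1 are called p53 targets of the list that went in opposite directions, so their proximal promoters are shown. Promoter sequences were not available here for Trp53inp1 and Xpc, the other called members. The windows are the 250 bases before each RefSeq transcription start on build GRCm38.p6, 5′ to 3′ on the strand of the gene. Gadd45a lies at chr6:67037408-67037657 on the minus strand, and the 2 starts of Sesn1 at chr10:41810324-41810573 and chr10:41887189-41887438 on the plus strand. Capitals mark matches to the p53 half-site consensus and to AACNG, the core of the Myb motif, on either strand.
Gadd45a: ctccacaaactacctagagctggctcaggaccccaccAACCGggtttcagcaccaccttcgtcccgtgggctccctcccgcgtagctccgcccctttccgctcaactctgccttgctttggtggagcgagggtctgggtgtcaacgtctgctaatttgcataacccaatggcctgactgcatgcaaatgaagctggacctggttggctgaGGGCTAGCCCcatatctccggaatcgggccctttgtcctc
Sesn1, first start: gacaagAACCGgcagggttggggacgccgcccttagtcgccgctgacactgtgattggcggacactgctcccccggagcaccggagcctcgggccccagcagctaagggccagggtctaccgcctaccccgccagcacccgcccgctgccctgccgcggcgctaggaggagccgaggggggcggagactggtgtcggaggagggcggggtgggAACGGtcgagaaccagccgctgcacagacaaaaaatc
Sesn1, other start: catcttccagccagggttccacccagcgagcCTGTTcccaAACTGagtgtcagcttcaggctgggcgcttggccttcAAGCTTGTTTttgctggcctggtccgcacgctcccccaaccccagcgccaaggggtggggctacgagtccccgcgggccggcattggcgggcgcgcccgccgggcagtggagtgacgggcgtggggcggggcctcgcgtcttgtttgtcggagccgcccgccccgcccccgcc
In Gadd45a the half-site match lay at -40 to -31 from the start and the AACNG match at -213 to -209. At the first start of Sesn1 there were 2 AACNG matches and 0 half-site matches. The other start of Sesn1 had a half-site match at -173 to -164 and AACNG matches at -210 to -206 and, on the other strand, at -219 to -215. A half-site match was found in 7.1% of all 32851 RefSeq windows of this length, and in 9 of the 46 windows (19.6%) found for 38 members. AACNG matches were found in 74.2% of all windows and in 73.9% of those of members. The matches are letters in a window and do not show binding.

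Trp53inp1, a p53-induced nuclear protein that promotes cell death and autophagy, read 7708, 7628, 7101 and 7073 on deficient arrays, against 8160, 9601, 9010 and 8586 on sufficient arrays. The groups did not overlap, and sufficient replicate 1 lay nearest to the deficient arrays. The difference was small on this probe set, 1416926_at (log2 -0.26 ± 0.06, adjusted p = 0.0298). The call ended without deficient replicate 2, 3 or 4 or sufficient replicate 2 or 3 (highest adjusted p = 0.0964).

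The other probe set of Trp53inp1, 1416927_at, showed a larger gap. It read 1976.6, 1885.2, 1564.3 and 901.9 on deficient arrays, against 3492, 3563, 3191.5 and 3348.5 on sufficient arrays. Deficient replicate 4 was the lowest, and no deficient array came near the sufficient ones. Here the signal was 2.23-fold lower on deficient arrays (log2 -1.16 ± 0.20, adjusted p = 0.00885 over probe sets, two-sided exact permutation p = 0.0286, the smallest that 70 labellings can give). Both probe sets gave the same direction and differed in size. Which transcripts each one detects was not analysed here.

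Xpc encodes the protein that recognises helix-distorting lesions in nucleotide excision repair. It read 281.3, 249.4, 250.1 and 248.5 on deficient arrays, against 380.4, 410.8, 422.5 and 359.2 on sufficient arrays. Both groups were tight, and the gap between them was wider than the spread in either. The gene fell by 0.58 ± 0.10 on the log2 scale (adjusted p = 0.00418), measured by 1 probe set, 1422532_at.

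**Figure D2:**
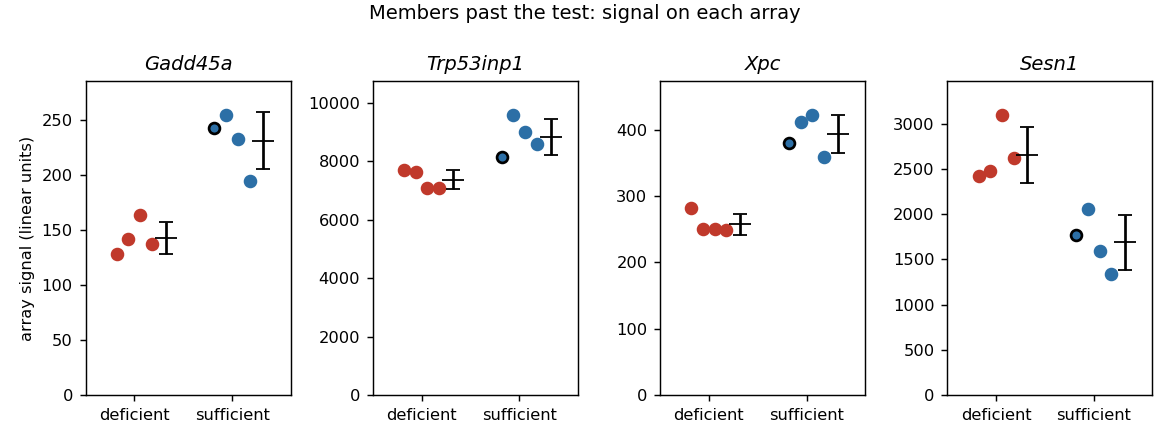
Signal (linear array units, y axis from 0) of the 4 members past the test on each of the 4 deficient (red) and 4 sufficient (blue) arrays, with group mean ± SD beside the points. The black ring marks sufficient replicate 1, the control mouse with high Xist, and all 4 genes show groups that do not overlap.

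Sufficient replicate 1 lay outside the deficient range for all 4 genes. That follows from groups that do not overlap, in a fit that included this mouse, so it is no separate check. Sufficient replicate 1 read 242.3 for Gadd45a, 1773.9 for Sesn1 and 380.4 for Xpc, inside the range of the other 3 sufficient mice in each case. For Trp53inp1 it read 8160, below the other 3 sufficient mice (8586 to 9601) and nearest to the deficient arrays. With Xist class in the model, where that mouse alone carries the group term, the differences were -0.71 for Gadd45a, 0.57 for Sesn1, -0.54 for Xpc and -0.15 for Trp53inp1. In that limma fit 0 of 47 members were called, with 3 at an unadjusted p under 0.05, and 26 of all 9941 genes. The adjusted p was 0.211 for Gadd45a, 0.366 for Sesn1, 0.237 for Xpc and 0.672 for Trp53inp1. Markers of other thymocyte stages also moved with the groups: 3 of 7 tested double-negative markers and 4 of 5 tested mature T-cell markers rose. Summed signals of the mature list were 1533 to 2860 on deficient and 316 to 612 on sufficient arrays. S1pr1 and Foxp3 of that list were below the dim filter. Those of the double-negative list were 3409 to 7135 on deficient and 1903 to 3005 on sufficient arrays. Of the other marker lists, 1 of 3 gamma-delta and NK genes, 1 of 10 macrophage and dendritic cell genes and the 1 tested erythroid gene rose, and 0 of 3 B-cell, 0 of 3 stromal and 0 of 1 granulocyte genes were called. The B-cell markers Cd79a, Ms4a1, Pax5 and Ebf1 were below the dim filter, as were 5 of 8 gamma-delta and NK and 3 of 4 erythroid genes. The gamma-delta and NK list summed to 3184 to 4398 on deficient and 2055 to 2631 on sufficient arrays. The B-cell list summed to 8082 to 9109 and 7490 to 7793, and the erythroid list to 946 to 1388 and 138 to 355. Macrophage and granulocyte sums overlapped between groups, and stromal sums were 618 to 841 and 841 to 910. The part of other cells in the 4 differences was not tested. In bulk RNA, fewer cells of a type and less RNA per cell cannot be told apart.

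The regulators of p53 were slightly lower in mean signal and did not pass. Mdm2, the ubiquitin ligase that degrades p53 and is also its target, read 983.2, 926.4, 876.1 and 928.2 on deficient arrays, against 1151.3, 1120.4, 987.1 and 965.3 on sufficient arrays. Sufficient replicate 4 alone reached into the deficient range (log2 -0.18 ± 0.09, adjusted p = 0.241). Mdm4, which blocks the activation domain of p53, read 883.8, 1045.0, 995.3 and 795.6 on deficient and 1087.5, 1096.2, 1102.3 and 999.6 on sufficient arrays (log2 -0.21 ± 0.10, adjusted p = 0.222). Sufficient replicate 4 overlapped the deficient arrays. A second probe set of Mdm4 differed by -0.35 with groups that did not overlap (adjusted p = 0.161 over probe sets), and that of Mdm2 by -0.02.

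Targets that arrest growth or limit stress gave 1 rise and 1 fall among 10 tested members, the rise of Sesn1 and the fall of Gadd45a above. Cdkn1a, the p21 inhibitor of cyclin-dependent kinases and a classic readout of active p53, was close to the dim limit of 33.8. It read 49.8, 40.1, 50.8 and 39.0 on deficient arrays, against 31.0, 53.5, 52.9 and 33.6 on sufficient arrays. The groups overlapped (log2 0.07 ± 0.20, adjusted p = 0.87). Ccng1, which encodes cyclin G1, averaged 1543 ± 196 on deficient and 1474 ± 205 on sufficient arrays (adjusted p = 0.776).

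Btg2, an antiproliferative gene, averaged 4922 ± 831 on deficient and 5264 ± 1088 on sufficient arrays. Zmat3, which encodes an RNA-binding zinc finger protein, averaged 164.0 ± 34.4 on deficient and 187 ± 54.3 on sufficient arrays. Rrm2b, the p53-inducible subunit of ribonucleotide reductase, differed by 0.14 and Polk, a polymerase that copies past lesions, by -0.09. Gadd45b, a relative of Gadd45a, read 43.6, 24.1, 44.2 and 79.1 on deficient and 33.6, 32.5, 33.0 and 37.8 on sufficient arrays (adjusted p = 0.542). Gadd45g, of the same family, read at most 41.2 on deficient and 37.4 on sufficient arrays and was left out by the dim filter. Plk2, a polo-like kinase gene, read at most 7.6 on deficient and 15.9 on sufficient arrays, and was left out too.

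Among the targets that promote death, Trp53inp1 fell and the other 4 tested members were not called. Pmaip1, which encodes the BH3-only protein Noxa, read 42.8, 39.3, 43.7 and 64.3 on deficient arrays, against 44.7, 41.6, 79.2 and 66.9 on sufficient arrays (log2 -0.21 ± 0.21, adjusted p = 0.605). Phlda3, an inhibitor of Akt, read 40.9 to 51.3 on deficient and 35.0 to 83.4 on sufficient arrays. These signals lie just above the dim limit, where precision is low. Aen, a nuclease gene, differed by 0.07 and Ei24, which encodes a membrane protein of the endoplasmic reticulum, by -0.03. Perp, a membrane protein gene, read at most 26.3 on deficient and 21.6 on sufficient arrays and was not tested.

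In limma an unadjusted p under 0.05 was reached by 2492 of all 9941 genes and by 6 of the 47 tested members. None of the 10 damage sensing and checkpoint genes passed in limma, and 1, Trp53bp1, had an unadjusted p under 0.05. Trp53bp1 marks broken ends and steers them toward end joining. It read 723.7, 827.7, 778.1 and 796.5 on deficient arrays, against 849.2, 798.6, 1054.8 and 1017.6 on sufficient arrays (log2 -0.24 ± 0.11, adjusted p = 0.188). Sufficient replicate 2 reached the deficient range. H2afx, the histone variant phosphorylated at breaks, averaged 4706 ± 1070 on deficient and 5138 ± 777 on sufficient arrays. Mdc1, which binds that mark, differed by -0.12.

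Atm, the kinase that answers double-strand breaks, read 734.1, 728.0, 772.8 and 492.3 on deficient arrays, against 598.3, 666.4, 466.0 and 548.2 on sufficient arrays. In 3 deficient mice it was above every sufficient mouse, and deficient replicate 4 lay near the low end (log2 0.24 ± 0.15, adjusted p = 0.369). Atr, which answers stalled replication, was also lowest of its group on that array, with 354.4, 401.4, 359.0 and 246.3 on deficient and 309.6, 358.0, 235.5 and 301.0 on sufficient arrays. Over all 8 arrays the other tested probe sets of Atr differed by 0.09 and -0.14, and that of Atm by 0.16. Without deficient replicate 4 the differences on the probe sets that represent the genes were 0.39 for Atm (adjusted p = 0.065) and 0.30 for Atr (adjusted p = 0.186). On that array the 5′ probe set of the 18S rRNA control read 7143, against 676 to 1459 on the other 7. Its part in these values was not tested. The checkpoint kinase gene Chek1 averaged 699 ± 191 on deficient and 682 ± 117 on sufficient arrays, and Chek2 averaged 178 ± 41.8 and 197 ± 54.5. The genes of the break-binding MRN complex differed by -0.03 (Mre11a), 0.02 (Rad50) and -0.19 (Nbn).

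None of the 8 recombination, helicase and Fanconi genes passed in limma, and 0 of 8 had an unadjusted p under 0.05. Brca1, which directs ends into homologous recombination, read 685.1, 629.4, 443.4 and 797.7 on deficient arrays, against 605.5, 514.6, 734.0 and 872.4 on sufficient arrays. The ranges of the groups overlapped (log2 -0.09 ± 0.19, adjusted p = 0.809). The other tested probe sets of Brca1 differed by -0.32, -0.42 and -0.06 without passing. Brca2, a tumour suppressor gene, averaged 299 ± 42.5 on deficient and 272 ± 39.5 on sufficient arrays. The recombination genes Rad52 and Rad54l differed by -0.04 and -0.13, and the RecQ helicase genes Blm and Wrn by 0.05 and -0.15. Fancd2 and Fanca, which act on crosslinks, differed by -0.02 and -0.03.

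Of the 8 base excision, single-strand break and mismatch genes 0 were called in limma and 1, Apex1, had an unadjusted p under 0.05. Apex1 cuts the DNA backbone at sites that have lost a base. It read 1067.0, 1098.3, 997.1 and 1358.7 on deficient arrays, against 845.4, 662.9, 767.1 and 1059.6 on sufficient arrays. Sufficient replicate 4 was the only array to overlap (log2 0.44 ± 0.14, adjusted p = 0.0791). Without it the difference was 0.56 and was called (adjusted p = 0.0248). The call was also made with the replicate block (0.0222) and with array weights (0.0418), while the 2 other probe sets of Apex1 differed by 0.34 and 0.09.

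Ogg1, the glycosylase for oxidised guanine, read 74.8, 69.5, 105.4 and 88.4 on deficient and 60.7, 43.4, 92.8 and 67.7 on sufficient arrays (log2 0.31 ± 0.20, adjusted p = 0.383). Parp1, which senses strand breaks, averaged 1861 ± 115 on deficient and 1688 ± 216 on sufficient arrays, and its 3 other probe sets differed by 0.21 to 0.44 without passing. Ung, the glycosylase for uracil, differed by 0.16. The ligase genes Lig1 and Lig3 differed by 0.08 and -0.01, and the scaffold gene Xrcc1 by 0.09. Msh6, a mismatch sensor subunit, averaged 2918 ± 290 on deficient and 3110 ± 132 on sufficient arrays (log2 -0.10 ± 0.08). Among the 4 nucleotide excision genes Xpc fell alone. Xpa, which verifies the lesion, differed by -0.07, Ercc1, a subunit of the nuclease that cuts beside it, by 0.02, and the ultraviolet damage sensor Ddb2 by 0.02.

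**Figure D3:**
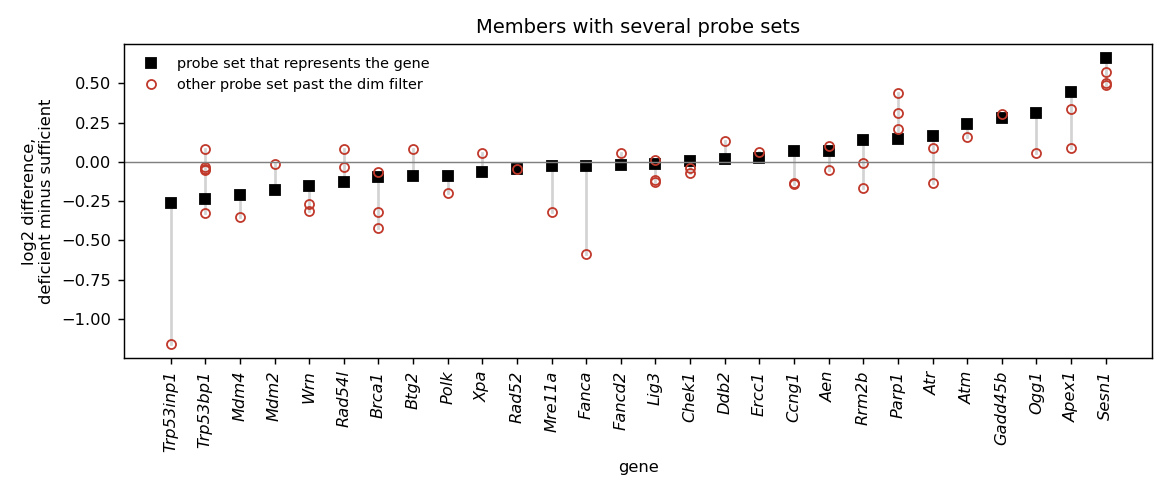
Log2 difference (y axis) on each probe set past the dim filter for the 28 members with more than 1 such probe set (x axis), with the probe set that represents the gene as a black square. The 48 other probe sets (circles) include 3 past the test, 1 of Trp53inp1 and 2 of Sesn1, and the widest gaps are those of Trp53inp1 and Fanca.

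A total of 28 members had more than 1 probe set past the dim filter. Of the 48 further probe sets 3 were called, and these belong to Trp53inp1 and Sesn1. The second probe set of Fanca differed by -0.58 with an adjusted p of 0.18, and 2 of its 4 deficient arrays were below the dim limit.

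Mice of 1 group differed from each other in proliferation markers and in repair genes. Of 30 proliferation markers 28 were tested and 0 were called in limma, also 0 at an unadjusted p under 0.05, with a median log2 difference of -0.04. Deficient replicate 3 had the lowest value of its group for 26 of the 28 markers, and their mean log2 level there was 0.38 below the average of the 8 arrays (-0.38). The same array was the lowest of the deficient group for 14 of the 30 repair members, among them Brca1 (443.4), Chek1 (459.3), H2afx (3347) and Lig1 (1113). Sufficient replicate 4 had the highest mean level of the proliferation markers (0.29) and of the damage sensing genes (0.23). Brca1 read 872.4 and H2afx 6175 there. Other repair members followed another order. Nucleotide excision genes had their lowest mean (-0.25) on deficient replicate 4, while base excision and mismatch genes had their highest (0.15) there and their lowest (-0.26) on sufficient replicate 2. Over all 30 repair members the lowest means were -0.11 on deficient replicate 3 and -0.11 on sufficient replicate 2, and deficient replicate 4 was the lowest of its group for 10 of the 30. The part of proliferation in the repair gene values was not tested.

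**Figure D4:**
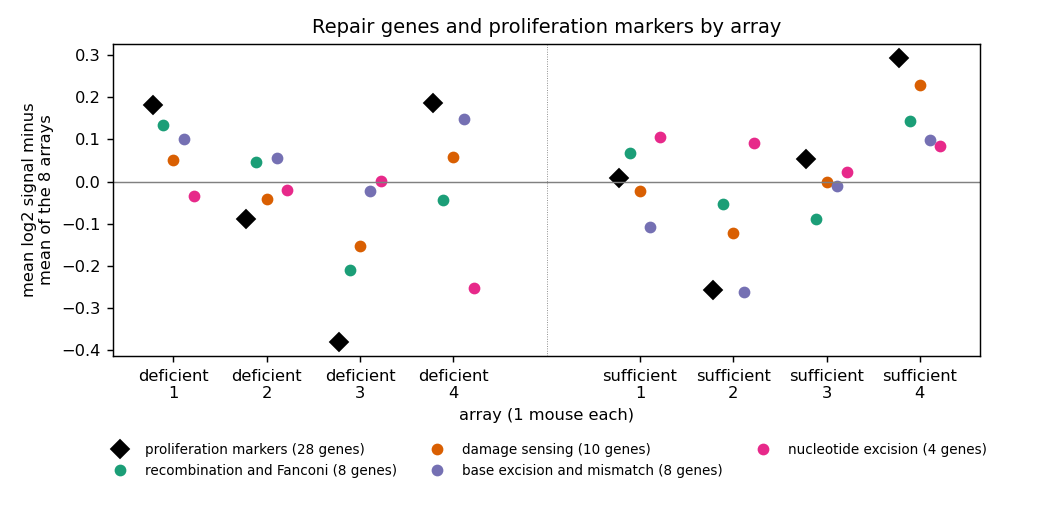
Mean log2 signal of each list on each array, minus the mean over the 8 arrays (y axis), for proliferation markers (black diamonds) and the 4 repair lists (circles), with 1 mouse per position on the x axis. The proliferation markers lie lowest on deficient replicate 3 (-0.38) and highest on sufficient replicate 4 (0.29), and the recombination genes are also lowest on deficient replicate 3 (-0.21).

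Other genes of these pathways gave 10 calls among 150 tested (6.7%), 6 higher and 4 lower, against 9.98% of all genes tested. The median difference of the 150 was -0.01 on the log2 scale. Of 23 genes on a list of other p53 targets 2 rose (8.7%) and 0 fell. Whether p53 acts on them in these cells was not tested. Tnfrsf18, the costimulatory receptor GITR, averaged 872 ± 133 on deficient and 498 ± 72.3 on sufficient arrays (log2 0.79 ± 0.13, adjusted p = 0.00475), and Trp53i13 rose by 0.33. Of 22 p53 partners and modifying enzymes 2 rose (9.1%). Smyd2, a methyltransferase that acts on p53, read 411.7 to 544.0 on deficient and 193.2 to 289.0 on sufficient arrays (log2 0.97 ± 0.14, adjusted p = 0.00206). Pml, the scaffold of nuclear bodies that hold p53, rose by 0.46 ± 0.11 (adjusted p = 0.0236). In limma, 0 of 24 other damage sensing genes, 0 of 29 other recombination and Fanconi genes and 0 of 21 other base excision and mismatch genes were called, with 3, 1 and 2 of them at an unadjusted p under 0.05. Of 23 other nucleotide excision and bypass genes, Poli, a lesion bypass polymerase, rose by 0.48 and Gtf2h4, a subunit of TFIIH, fell by 0.56.

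End joining genes, which close the breaks of receptor gene rearrangement, gave 4 calls among 8 tested, beside 9.98% called among all 9941 genes. Lig4, the ligase of that pathway, read 615.3, 515.6, 369.7 and 669.5 on deficient arrays, against 1663.1, 1865.7, 2127.0 and 1801.8 on sufficient arrays, a 3.43-fold lower level (log2 -1.78 ± 0.16, adjusted p = 0.000154). Every deficient array was far below every sufficient one. The genes of the 2 subunits of the Ku end-binding complex differed in direction, as Xrcc6 fell by 0.71 and Xrcc5 rose by 0.39. Dntt, which adds bases at the joins, fell by 0.26. The end joining list was chosen with earlier results of these data known. Its share of calls was not tested against that of all genes. Sex was largely confounded with group for these calls too.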

How the data were processed

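RNA of double-positive thymocytes from 8 mice was hybridised to 1-colour Affymetrix arrays, 1 per mouse. The authors deposited linear intensity values, 1 for each probe set on each array. The submitters' processing notes name GCOS, the Affymetrix software, without a version. Each array's 2% trimmed mean was 250.0, so totals of RNA per cell cannot be compared. No batch is named in the labels. Signals were used as log2(signal + 16), which understates changes of dim genes. Of 45101 probe sets 64 controls were left out. Gene names came from the platform annotation, with older symbols matched through RefSeq synonyms. A probe set was kept if it passed the table's median, 33.8, on at least 4 arrays, and each gene was read from its single-symbol probe set with the highest mean. The test of each difference was two-sided and came from limma 3.58.1 (lmFit and a trended eBayes step, run in R 4.3.3), with p-values adjusted by Benjamini-Hochberg over 9941 genes. Exact permutation tests used the 70 labellings. The fit was also run on simulated data with independent noise for each gene. These held no shared array, sex or cell mixture effects, so the run says nothing of those. Named genes were all called members, the 6 largest uncalled differences, preset members, and up to 4 called genes of each other list. The members and lists were chosen with earlier results of these data known. The labels call the arrays biological replicates. Alternatives covered the pseudocount, dim filter, scaling, probe set choice, array weights, replicate block, Xist class and leaving out each array. The number of arrays limits the precision. Promoter windows are from RefSeq (GRCm38.p6). Python 3.11.15 served for other steps, with pandas 2.3.3 for tables and matplotlib 3.10.9 for figures.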

Additional observations from a re-analysis of the deposited data

Results flagged for a closer look

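Over the 47 tested members, 1 array lay far from the other 3 in 9 of 94 groups of 4 arrays. Far means a gap over range above Dixon's 95% critical value. For independent, normally distributed values chance alone gives about 1 in 20. The 94 groups share the same arrays and hold linear signals, so the count cannot show an excess over chance. Deficient replicate 4 stood apart for Atm (492.3 against 728.0 to 772.8), Nbn (302.3 against 212.1 to 212.7) and Ercc1 (520.4 against 451.2 to 460.5). Deficient replicate 3 was high for Zmat3 (215.5 against 145.1 to 149.2). Deficient replicate 1 was the highest of its group for Xpc (281.3 against 248.5 to 250.1), still below every sufficient mouse. Among sufficient mice, replicate 4 was low for Mdm4 (999.6 against 1087.5 to 1102.3) and Rrm2b (307.2 against 357.7 to 363.1). Brca2 read 213.1 in sufficient replicate 3, against 287.6 to 295.7 in the others. Rad50 read 442.7 in sufficient replicate 1, against 484.9 to 493.6.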

How the results depend on the processing

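The number of members called was 4 and stayed between 3 and 5 under 19 of 20 alternatives, and the fit with Xist class in the model gave 0. Without 1 array it ranged from 3 to 5. Gadd45a, Sesn1 and Xpc were each called in 19 of 20 alternatives and kept their sign in all 20, the exception being the fit with Xist class. Trp53inp1 kept its sign in all 20 and was called in 11. Without a filter on dim probe sets, without a variance trend and after median centring its adjusted p was 0.101, 0.101 and 0.105. Of the 21 named members that were not called, Apex1 passed in 3 fits. The sign of 8 of them (Brca1, Ccng1, Cdkn1a, Chek1, H2afx, Lig1, Pmaip1 and Rad50) changed in 26 of 415 values, the largest of them 0.1331 in size. The number of all genes called was 992, ranged from 508 to 1217 without 1 array (508 without sufficient replicate 3, 541 without deficient replicate 2), and was 1745 with array weights and 26 with Xist class. Other pathway genes gave 10 calls, 5 to 11 without 1 array, 6 without the dim filter, 5 without probe sets ending in _s_at, _x_at or _a_at, 17 with array weights and 1 with Xist class; the causes were not tested. With the replicate number as a block 1035 of all genes, 5 members and 9 other pathway genes were called. Arrays with the same number correlated in their deviations at 0.004, 0.172, -0.274 and 0.361. Of the 4 deficient arrays, 0 correlated best with the sufficient array of the same number. With 4 mice in each group this check cannot exclude pairing by number, and the labels name no pairing. Signals near the dim limit, as for Cdkn1a, Gadd45b, Pmaip1 and Phlda3, limit what can be said of these genes.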
